A study of Mus musculus with 15 samples.

Results

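The genes described here encode ligands, receptors, signal carriers, inhibitors and target genes of the BMP, activin and TGF-beta pathway in mouse embryonic stem (ES) cells. They were chosen by a rule on gene symbols, which was set with earlier results of these data known. A probe set (the group of array probes read as 1 value) was taken when it was annotated to a single gene whose symbol starts with Bmp, Smad, Inhb, Acvr, Tgfb or Grem, or is Id1, Id2, Id3, Id4, Nog, Chrd, Fst, Skil or Bambi. Each gene was represented by its probe set with the highest mean over all arrays. The rule found 52 genes on 113 probe sets, of 18193 genes on the array. Of these, 46 were tested, since 3 or more of their arrays reached a log2 intensity of 3.864 (the median over the whole table), among 12813 genes tested in all. The other 6 (Acvr1c, Bmp5, Bmp15, Bmpr1b, Inhbe and Smad9) stayed below that level in the mean of every line.

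The RNA of 5 ES cell lines had been hybridised to Affymetrix mouse arrays, 3 per line. NmB6D2 is a fertilised line from naturally mated C57BL6 females and DBA2 males. R1 is a purchased line of fertilised origin, whose parents were 129S1/SvImJ and 129X1/SvJ mice. The other 3 lines are parthenogenetic, grown from oocytes activated without sperm, so they carry only maternal chromosomes. For OpB6D2, oocytes had been ovulated by B6D2F1 females (C57BL6 mother, DBA2 father). For the remaining pair, preantral follicles of prepubertal females were cultured until their oocytes could be used: FpB6D2 from B6D2F1 and FpB6CBA from B6CBAF1 females (C57BL6 mother, CBA/Ca father). No line carried a stated transgene or treatment, and medium and feeder cells are not given in the sources used here. Each line stands for 1 derivation, so strain, sex, mode of origin and line cannot be told apart in a comparison of lines. The arrays of a line are not said to come from separate cultures, so p values measure only the spread between arrays, which may be technical.

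BMP, activin and TGF-beta proteins are secreted dimers that bring together type I and type II receptor kinases at the cell surface. BMP receptors pass the signal to Smad1, Smad5 and Smad9, and activin and TGF-beta receptors to Smad2 and Smad3. Both branches share Smad4 as partner. In mouse ES cells, BMP4 acts together with the cytokine LIF to sustain self-renewal, in part through Id genes, whose proteins hold back differentiation factors. Follistatin (Fst), noggin (Nog) and chordin (Chrd) bind ligands outside the cell and block them, while Smad6 and Smad7 inhibit inside it.

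Arrays of a line resembled each other closely, with correlations over tested genes of 0.993 to 0.998, against 0.910 to 0.978 between lines, where genes are not independent replicates. The ES cell markers Pou5f1 (line means 11.38 to 12.02), Sox2 (10.96 to 11.26) and Nanog (9.81 to 11.39) were high in every line. Markers of other cell types differed between lines. The 7 mesendoderm markers on the array had a mean log2 intensity of 6.55 to 6.79 on the R1 arrays and of 3.80 to 4.11 on the other 12. In the other 4 lines Mixl1, Gsc, Fgf8, Wnt3 and Lhx1 all had means below 3.864, whereas in R1 only Gsc did. Fibroblast markers, which feeder cells also express, were highest in R1 for 13 of 19 genes. Their summed intensity was 9357 to 10045 on R1 arrays, 6058 to 7881 on OpB6D2, 5930 to 6234 on FpB6D2, 5264 to 6159 on FpB6CBA and 4087 to 4513 on NmB6D2 arrays. Primitive endoderm markers were highest in FpB6CBA for 9 of 12 genes, with a summed intensity of 5044 to 6209, against 1374 to 1962 on the other arrays. Trophectoderm markers had a summed intensity of 5898 to 6442 on NmB6D2 arrays and of 1008 to 1154 on OpB6D2 arrays, with 5112 to 5734 in R1, 4488 to 5322 in FpB6CBA and 1750 to 1832 in FpB6D2. The part of these cell types in the results that follow was not tested, and fewer cells of a type and less RNA per cell cannot be told apart in such samples. Hybridisation controls, added to each array at a fixed amount, read 10.02 to 10.11 on FpB6D2 arrays, 10.37 and 10.41 on FpB6CBA replicates 1 and 2, but 9.71 on FpB6CBA replicate 3, and 9.36 to 9.73 on the other arrays. FpB6CBA replicate 3 also had the lowest median over tested genes, 6.63 against up to 6.79.

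**Figure D1:**
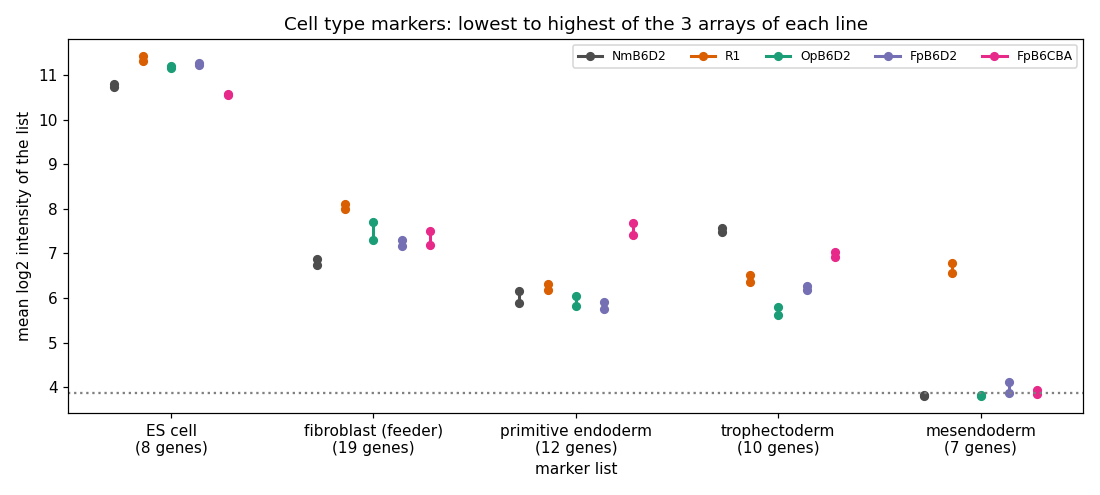
Mean log2 intensity of 5 marker lists in each line; the dots give the lowest and the highest of its 3 arrays, and the dotted line is the filter value of 3.864. The mesendoderm list lies at 6.55 to 6.79 in R1 and near the filter value in the other 4 lines, and the primitive endoderm list is highest in FpB6CBA.

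The pathway genes differed widely across the 5 lines, most often through a high value in R1. A gene was called across the lines when its moderated F test in limma gave an adjusted p under 0.05 and its highest line mean lay at least 1 log2 unit (2-fold) above its lowest. By this rule 32 of the 46 tested members (69.6%) were called, against 32.9% of all tested genes. By the adjusted p alone 44 of 46 passed, against 87% of all genes. Their median span between highest and lowest line mean was 1.22 log2 units, against 0.74 over all tested genes. Some genes pass the filter only through the line where they are high: Bmp2 and Nog exceeded it in R1 alone, and Bmper and Tgfb2 in the means of 2 lines. Among the 40 members whose mean reached the filter value in every line, 27 were called (67.5%), against 32.6% of all such genes. R1 was the highest line for 22 of the 32 called members (68.8%), and for 33.7% of all called genes. Among the 27 called members at the filter value in every line, R1 was highest for 18 (66.7%), against 32.8% of all such genes. In 20 called members all 3 R1 arrays lay above the other 12 arrays, as in 9.47% of all genes by the same rule, and in 0 called members all 3 lay below, as in 7.24%. Of the 40 members at the filter value in every line, 16 were called with all R1 arrays on top (9.09% of all such genes). The corresponding counts of called members above and below were 3 (2.65%) and 2 (2.4%) for NmB6D2, 0 (2.44%) and 3 (1.36%) for OpB6D2, 1 (4.49%) and 5 (4.27%) for FpB6D2 and 3 (5.95%) and 3 (4.83%) for FpB6CBA, with the share of all genes in parentheses. With R1 left out, 15 members were called across the remaining 4 lines (32.6%), against 20.9% of all genes: Acvr1b, Bmp2k, Bmp4, Bmp8b, Bmpr2, Grem1, Id1 to Id4, Inhba, Inhbb, Skil, Tgfbi and Tgfbr3. With FpB6CBA left out instead, 26 were called (56.5%), against 25.5%.

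**Figure D2:**
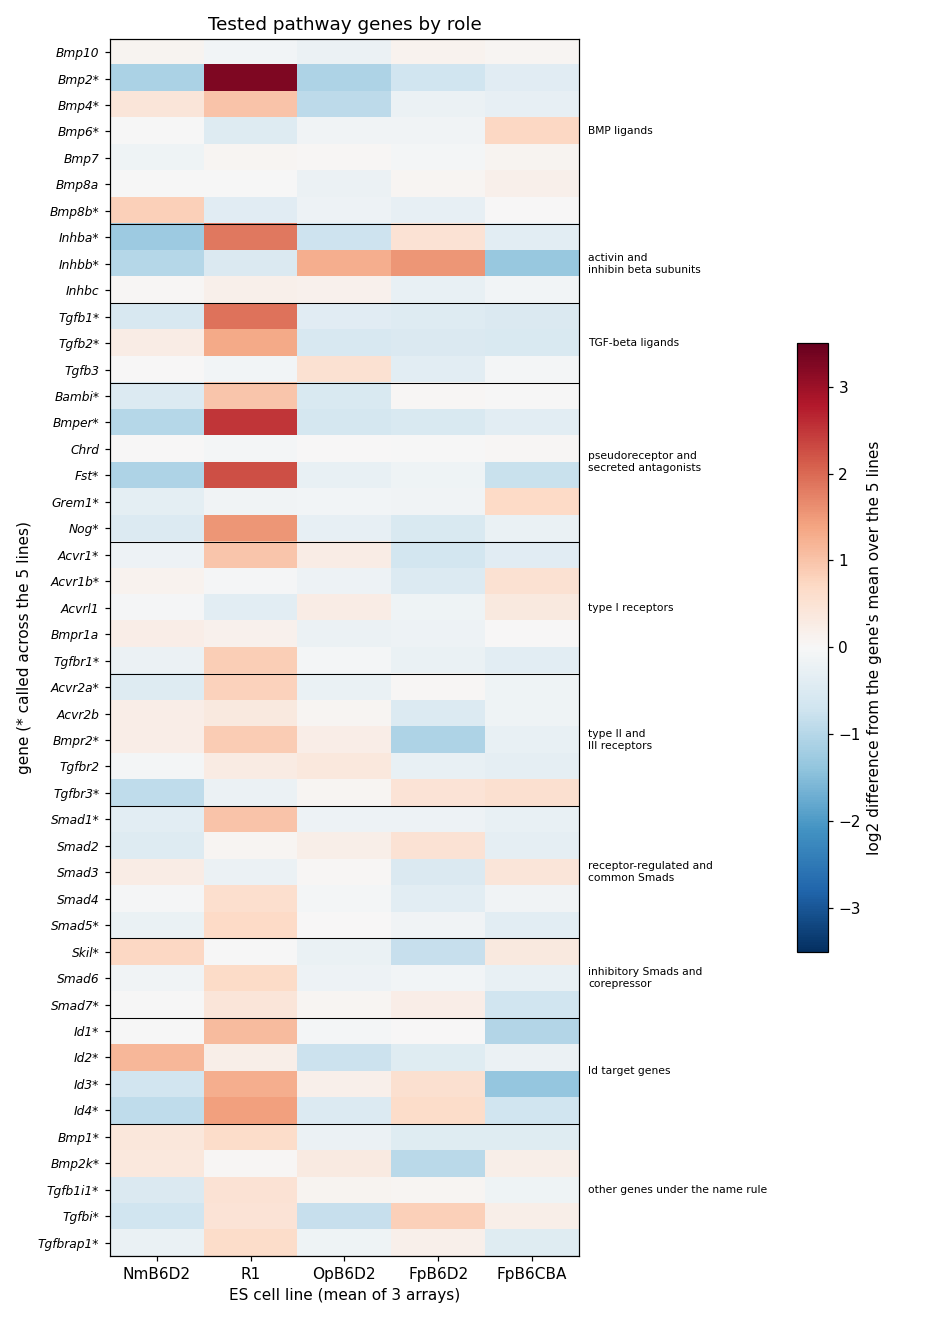
Line means of the 46 tested genes, each as the log2 difference from the gene's mean over the 5 lines, ordered by role; an asterisk marks the 32 called genes. Red cells gather in the R1 column, with the deepest at Bmp2, Bmper and Fst, and Inhbb is red in OpB6D2 and FpB6D2.

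Between pairs of lines, a member was called at an adjusted p under 0.05 and a difference of at least 1 log2 unit. R1 against NmB6D2 had 17 members higher and 1 lower, where 7.39% and 5.49% of all tested genes were called, and the median difference of the members was 0.60 against -0.04 over all genes. Of the 40 members at the filter value in every line, 13 were higher and 1 lower (all such genes 6.71% and 5.55%). FpB6D2 against NmB6D2 had 6 higher and 5 lower (all genes 5.22% and 5.53%), with a median of 0.02 for the members and for all genes alike. OpB6D2 against NmB6D2 had 1 higher and 3 lower, where 3.24% and 2.6% of all genes were called (5.84% either way). These 3 comparisons share the NmB6D2 arrays. FpB6D2 against OpB6D2 had 3 higher and 2 lower (all genes 1.31% and 2.44%), and FpB6CBA against FpB6D2 had 3 higher and 4 lower (all genes 6.03% and 5.14%). In the last comparison the primitive endoderm markers were also higher in FpB6CBA, 11 of 12, with 1 lower. Without FpB6CBA replicate 3, 10 members were called instead of 7, and 1470 genes in all instead of 1430. The hybridisation controls of that array stood apart from those of its line, but a link to this change was not tested.

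**Figure D3:**
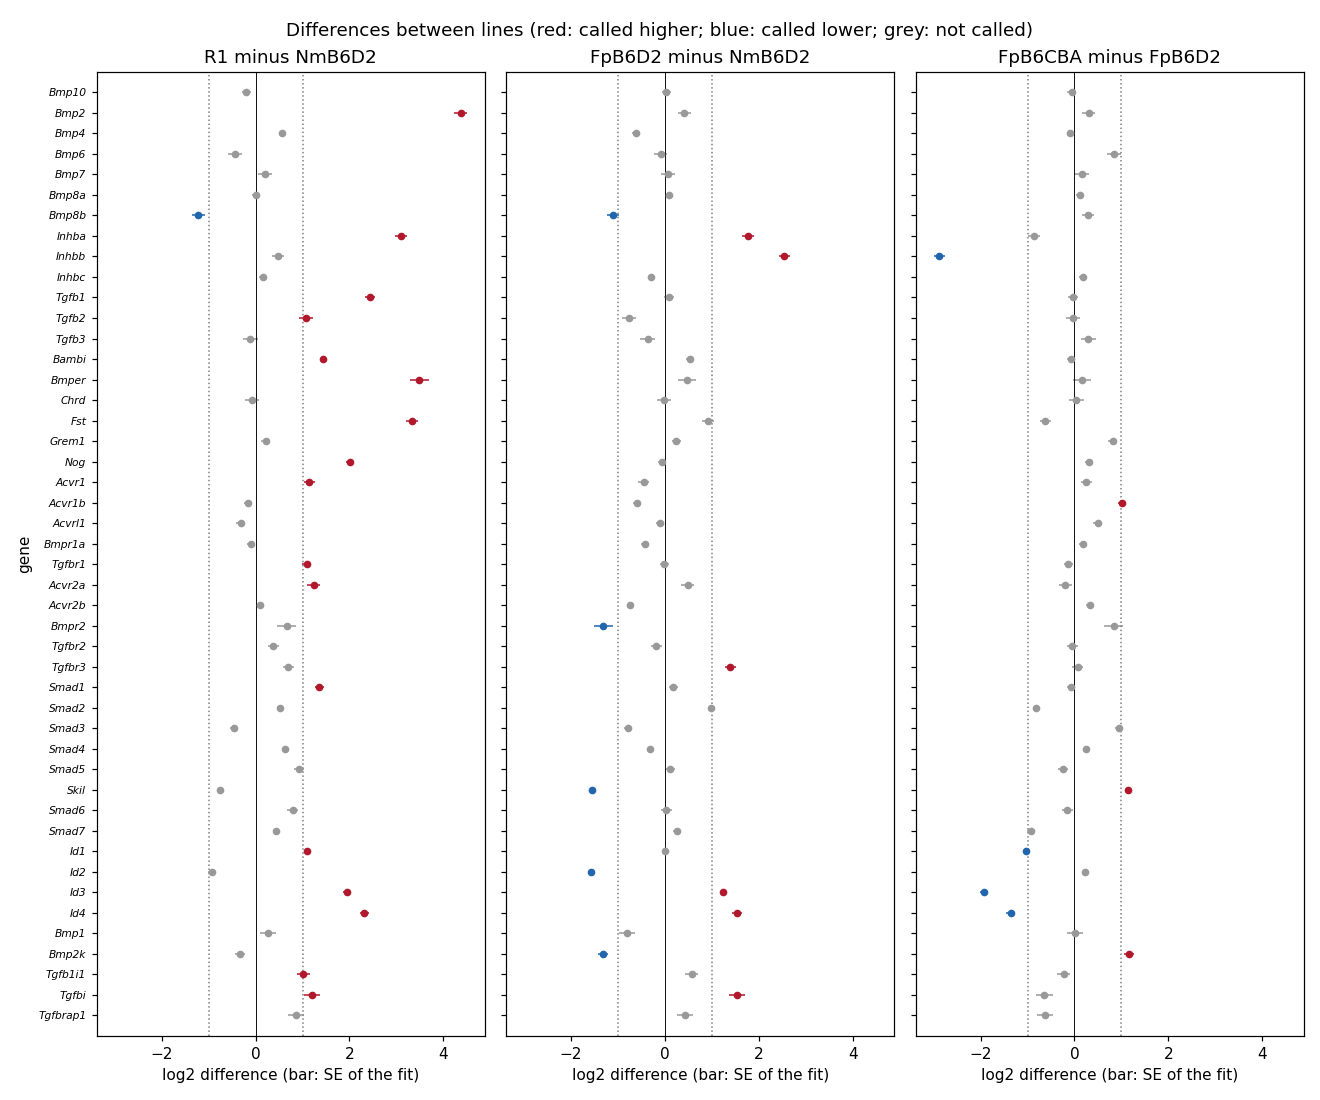
Fitted log2 differences of the 46 tested genes, with the standard error of the fit as bars, for R1 against NmB6D2, FpB6D2 against NmB6D2 and FpB6CBA against FpB6D2; dotted lines mark 1 log2 unit either way. In the R1 panel 17 genes are called higher and only Bmp8b lower, whereas the other panels hold called genes on both sides.

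Among the BMP ligands, Bmp2 exceeded the filter value in R1 only. Bmp2 encodes a ligand used in mesoderm and heart formation. It read 6.63, 7.32 and 6.89 on the R1 arrays, 2.67, 2.49 and 2.60 on NmB6D2, 2.63, 2.67 and 2.51 on OpB6D2, 3.06, 2.86 and 3.06 on FpB6D2 and 3.24, 3.46 and 3.19 on FpB6CBA. No array of another line reached the filter value. Against NmB6D2 this is at least 8.48-fold higher, counted from the filter value. No p value is given, since Bmp2 passed the filter through R1 alone. The mesendoderm markers Lhx1 (6.29 in R1, 3.08 to 3.13 elsewhere) and Mesp1 (8.68, and 4.07 to 4.28, above the filter value) were also highest in R1, and fibroblast markers were higher in R1 too (12 of 19 called higher than in NmB6D2, 0 lower).

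Bmp4, the ligand known for ES cell self-renewal, was high in all lines and ordered them. It read 9.51, 9.68 and 9.53 on R1 arrays, 8.999, 8.995 and 9.01 on NmB6D2, 8.35, 8.36 and 8.42 on FpB6D2, 8.42, 8.29 and 8.15 on FpB6CBA and 7.59, 7.80 and 7.65 on OpB6D2. The arrays of FpB6D2 and FpB6CBA overlapped, and no others did. OpB6D2 lay 2.50-fold below NmB6D2 (log2 difference -1.32 ± 0.07 SE, adjusted p = 5.9e-09 by limma), while R1 (0.57 above NmB6D2) and FpB6D2 (0.63 below it) stayed within the fold minimum. Trophectoderm markers were lower in OpB6D2 than in NmB6D2 as well (5 of 10 called lower, 0 higher).

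The remaining BMP ligands were weak. Bmp8b, a ligand of the germ line, was highest in NmB6D2 (5.60 ± 0.11 SD, n = 3) and lay at 4.39 to 4.79 in the means of the other lines. It was called lower than in NmB6D2 in R1 (-1.22 ± 0.14 SE), FpB6D2 (-1.11 ± 0.14) and OpB6D2 (-1.01 ± 0.14), the last at the fold minimum (-0.95 without NmB6D2 replicate 2, -0.97 without OpB6D2 replicate 4). FpB6D2 fell short of the minimum without its replicate 1 (-0.96). A second probe set gave 5.43 in NmB6D2 and 3.30 to 4.35 elsewhere. Bmp8b and Bmp8a are close copies, so their probe sets may share signal and both values are uncertain. Bmp6 was highest in FpB6CBA (4.81 ± 0.31, against 3.63 to 4.07 in the other means). Bmp10, Bmp7 and Bmp8a spanned 0.33, 0.24 and 0.39 and were not called, although another Bmp7 probe set spanned 1.43, from 3.48 in NmB6D2 to 4.91 in FpB6CBA.

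The activin subunits showed 2 different orders. Inhba encodes the subunit of activin A and Inhbb that of activin B, while both also pair with the inhibin alpha chain. Inhba read 9.50, 9.38 and 9.37 on R1 arrays, 8.15, 8.24 and 7.86 on FpB6D2, 7.37, 7.19 and 7.09 on FpB6CBA, 6.88, 7.12 and 6.59 on OpB6D2 and 6.17, 6.37 and 6.41 on NmB6D2. Only FpB6CBA and OpB6D2 overlapped. R1 was 8.58-fold above NmB6D2 (3.10 ± 0.13, adjusted p = 9.6e-11) and FpB6D2 3.41-fold (1.77 ± 0.13, adjusted p = 3.7e-08). FpB6D2 was also 2.33-fold above OpB6D2 (1.22 ± 0.13), the line with which it shares strain and mode of origin. Averaged with its other probe set, which stayed below the filter value on every array, the FpB6D2 differences were 0.91 against NmB6D2 and 0.67 against OpB6D2, below the fold minimum.

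Inhbb was high in OpB6D2 and FpB6D2, the parthenogenetic lines of B6D2F1 females. It read 9.05, 9.33 and 9.15 on OpB6D2 arrays and 9.38, 9.49 and 9.46 on FpB6D2, against 6.88, 6.99 and 6.82 on NmB6D2, 7.32, 7.30 and 7.51 on R1 and 6.60, 6.86 and 6.24 on FpB6CBA. The 6 high arrays did not overlap with the other 9. OpB6D2 lay 4.84-fold above NmB6D2 (2.27 ± 0.13, adjusted p = 4.6e-09) and FpB6D2 5.82-fold (2.54 ± 0.13, adjusted p = 7.3e-10). FpB6CBA, parthenogenetic as well, lay 7.34-fold below FpB6D2 (-2.88 ± 0.13, adjusted p = 2e-10). A weaker probe set kept this grouping, at 6.30 and 6.26 in the 2 high lines and 5.37 to 5.53 in the others. Inhbc spanned 0.45 and was not called. Inha, the inhibin alpha chain gene, lay near the filter value, at 3.53 to 3.81 in 4 lines and 4.52 in FpB6CBA.

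Of the TGF-beta ligands, Tgfb1 was high in R1 alone. Its arrays read 9.01, 8.95 and 9.04 in R1, 6.41, 6.54 and 6.72 in NmB6D2, 6.67, 6.90 and 6.59 in OpB6D2, 6.68, 6.65 and 6.62 in FpB6D2 and 6.75, 6.73 and 6.38 in FpB6CBA. R1 was 5.43-fold above NmB6D2 (2.44 ± 0.10, adjusted p = 1.3e-10), and without R1 the gene spanned 0.16 (adjusted p = 0.58 by the F test). Tgfb2 was above the filter value in both fertilised lines only, at 5.43 ± 0.14 in R1, 4.36 ± 0.25 in NmB6D2 and 3.52 to 3.59 in the 3 parthenogenetic means, all below the filter value. This holds for 1 probe set: on the other 2 that reached the filter value on 3 arrays, only R1 exceeded it (4.94 and 4.36), with NmB6D2 at 3.29 and 3.17 and the parthenogenetic lines at 2.91 to 3.12. Its R1 difference from NmB6D2 was 1.07 ± 0.15, and 0.96 without NmB6D2 replicate 2. Tgfb3 spanned 0.90, from 3.94 in FpB6D2 to 4.84 in OpB6D2, and was not called.

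**Figure D4:**
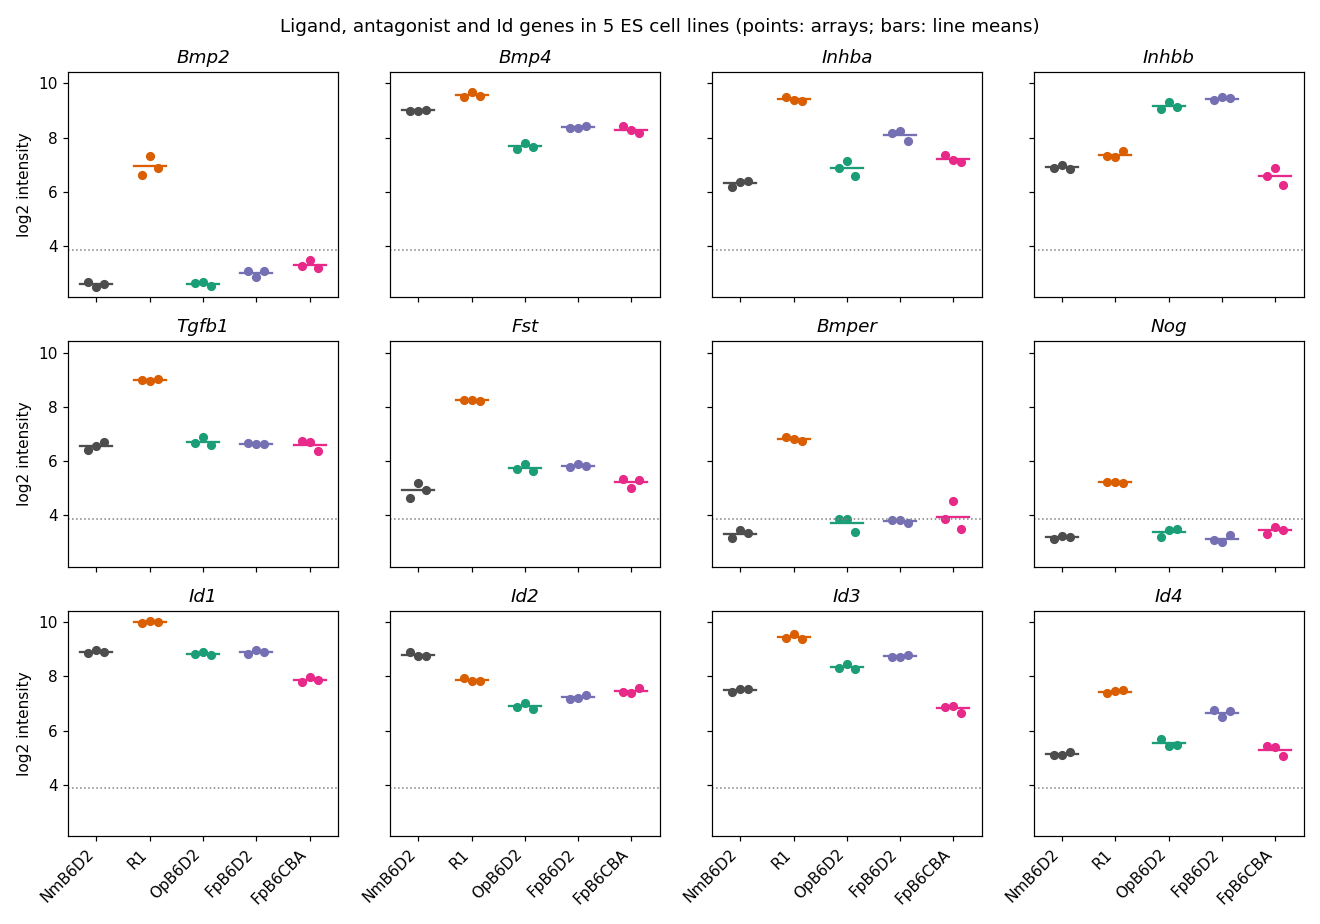
Log2 intensity of 12 ligand, antagonist and Id genes on every array (points) with line means (bars); the dotted line is the filter value of 3.864. Bmp2, Tgfb1, Fst, Bmper and Nog stand apart in R1, Inhbb in OpB6D2 and FpB6D2, and Id2 is highest in NmB6D2.

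Among the inhibitors outside the cell, Fst, Bmper, Nog and Bambi were highest in R1 and Grem1 in FpB6CBA. Fst, which binds activins, read 8.26, 8.27 and 8.22 on R1 arrays, 5.80, 5.91 and 5.81 on FpB6D2, 5.70, 5.89 and 5.62 on OpB6D2, 5.35, 4.99 and 5.32 on FpB6CBA and 4.64, 5.21 and 4.94 on NmB6D2. R1 lay above every other array and was 10.01-fold above NmB6D2 (3.32 ± 0.13, adjusted p = 3.5e-11). A further probe set spanned 4.73, again with R1 highest. Bmper, a secreted BMP-binding modulator, read 6.88, 6.81 and 6.75 in R1. Its other arrays lay at 3.17, 3.46 and 3.34 in NmB6D2, 3.85, 3.85 and 3.40 in OpB6D2, 3.84, 3.83 and 3.71 in FpB6D2 and 3.86, 4.51 and 3.48 in FpB6CBA, so that R1 was at least 7.71-fold above NmB6D2. No p value is given, since Bmper would not have passed the filter without its R1 arrays.

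Nog, the BMP antagonist noggin, read 5.22, 5.25 and 5.18 in R1. It stayed below the filter value on every other array, at 3.14, 3.25 and 3.21 in NmB6D2, 3.21, 3.45 and 3.51 in OpB6D2, 3.10, 3.03 and 3.28 in FpB6D2 and 3.32, 3.56 and 3.44 in FpB6CBA. R1 was at least 2.55-fold above NmB6D2, without a p value here, since Nog passed the filter through R1 alone. Bambi, a receptor without a kinase that dampens signalling, was 7.93 ± 0.19 in R1 and 6.42 to 7.01 in the other means, a 2.72-fold difference from NmB6D2 (1.44 ± 0.08, adjusted p = 1.8e-09). Grem1, the BMP antagonist gremlin, was instead highest in FpB6CBA (6.79 ± 0.16, against 5.74 to 5.98, with R1 at 5.95), where all 3 arrays lay above the other 12. Its span of 1.05 was 0.97 without FpB6CBA replicate 3. Chrd spanned 0.10 (adjusted p = 0.98).

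Of 10 tested receptors, 6 were called (32.9% of all genes), 0 of them with a span of 2 log2 units or more (6.81% of all genes). Acvr1, a type I receptor for BMPs, was 6.996 ± 0.03 in R1, 6.29 in OpB6D2, 5.85 in NmB6D2, 5.65 in FpB6CBA and 5.39 in FpB6D2, and a further probe set gave the same order, while another near the filter value spanned 0.10. Its R1 difference from NmB6D2 was 1.15 ± 0.12 (0.99 without NmB6D2 replicate 4). Tgfbr1, the type I receptor of TGF-beta, was 8.35 ± 0.06 in R1 and 7.12 to 7.39 elsewhere. Acvr2a, a type II receptor for activins, was 6.71 ± 0.05 in R1 and 5.47 to 5.96 elsewhere, with a like pattern on its other probe set (6.21 in R1, 6.12 in FpB6D2, 5.16 to 5.53 in the rest).

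Bmpr2, the type II receptor of BMPs, was lowest in FpB6D2. It read 5.78, 6.22 and 6.02 there, 7.10, 7.21 and 6.24 in FpB6CBA, 7.24, 7.47 and 7.28 in NmB6D2, 7.25, 7.53 and 7.19 in OpB6D2 and 7.93, 8.16 and 7.89 in R1. All FpB6D2 arrays lay below the other 12, though only just below the lowest FpB6CBA array, and all R1 arrays lay above. FpB6D2 was 2.50-fold below NmB6D2 (-1.32 ± 0.20, adjusted p = 5.7e-05) and 2.49-fold below OpB6D2. With the probe sets of Bmpr2 averaged, these differences were -0.36 and -0.45. On a probe set near the filter value FpB6CBA was lowest instead (3.21, with FpB6D2 at 3.65). Tgfbr3, a co-receptor also named betaglycan, was lowest in NmB6D2 (4.78 ± 0.22) and 6.17 ± 0.04 in FpB6D2, a difference of 1.39 ± 0.12. Acvr1b, the activin type I receptor, was highest in FpB6CBA (8.52 ± 0.20, 1.01 ± 0.08 above FpB6D2) and dropped under the fold minimum without FpB6CBA replicate 1 (0.94) or replicate 2 (0.96), or FpB6D2 replicate 3 (0.99). Averaged over every probe set of the gene, the spans of Acvr1b (0.49), Bmpr2 (0.73), Tgfbr1 (0.60) and Tgfbr3 (0.78) lay below 1, as did the R1 difference of Acvr1 (0.72). Acvr2b (span 0.83), Acvrl1 (0.70), Tgfbr2 (0.69) and Bmpr1a (0.44) were not called.

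Of the Smads that carry the signal, Smad1 and Smad5 of the BMP branch were called and both were highest in R1. Smad1 was 8.71 ± 0.06 in R1 and 7.35 to 7.53 in the other 4 means, 2.57-fold above NmB6D2 (1.36 ± 0.09, adjusted p = 1.2e-08). Both further Smad1 probe sets put R1 highest, with spans of 1.19 and 1.94, and without R1 the gene spanned 0.19. Smad5 was 6.58 ± 0.07 in R1 and 5.53 to 5.90 elsewhere, with a span of 1.05 (0.92 without FpB6CBA replicate 3, and 0.51 with probe sets averaged). On another Smad5 probe set, above the filter value on all 15 arrays, FpB6D2 was highest instead (4.66, with R1 at 4.47). The activin-branch genes Smad2 (span 0.97) and Smad3 (0.94) and the shared Smad4 (0.94) had spans just under the fold minimum. Smad2 was highest in FpB6D2 (8.501 ± 0.03) and lowest in NmB6D2 (7.53 ± 0.07), while Smad3 was lowest in FpB6D2 (6.29 ± 0.15). Another Smad2 probe set was instead lowest in FpB6D2 (5.96, against 6.82 to 7.09), so its direction in FpB6D2 depends on the probe set.

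Of the inhibitors inside the cell, Smad7 and Skil were called. Smad7, which blocks receptor signalling and is itself a target of the pathway, was lowest in FpB6CBA (7.85 ± 0.02, against 8.53 to 8.97), and all 3 FpB6CBA arrays lay below the other 12. Its span of 1.12 was 0.85 with probe sets averaged. Smad6 was highest in R1 (7.90 ± 0.26, against 6.99 to 7.14) and was not called (0.91). Skil, a corepressor that binds Smads, was highest in NmB6D2 (10.44 ± 0.04) and lowest in FpB6D2 (8.90 ± 0.05), a 2.92-fold difference (-1.55 ± 0.08, adjusted p = 7.2e-10). FpB6CBA lay 1.14 ± 0.08 above FpB6D2 in Skil, or 0.48 with the gene's probe sets averaged. On the weaker Skil probe set FpB6CBA was instead the lowest line (4.19, with FpB6D2 at 4.38), so the direction of this difference depends on the probe set.

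All 4 Id genes were called across the lines, where 32.9% of all genes were, and Id1, Id3 and Id4 differed from Id2 in their order. Id proteins pair with basic helix-loop-helix factors and keep them off DNA, and Id1 to Id3 are textbook BMP targets. The sequence before the start site is shown for the 3 Id genes with an entry in the RefSeq promoter table (GRCm38.p6), because Id3 and Id4 shared an expression pattern that Id2 did not. Each window holds the 250 bases before the start site, 5′ to 3′ on the strand of the gene. Capitals mark GGCGCC, a GC-rich motif known for Smad1 and Smad5 binding, and CAGAC or its reverse complement GTCTG, a Smad-binding motif, searched on both strands.
Id3 (chr4:136143572-136143821, + strand): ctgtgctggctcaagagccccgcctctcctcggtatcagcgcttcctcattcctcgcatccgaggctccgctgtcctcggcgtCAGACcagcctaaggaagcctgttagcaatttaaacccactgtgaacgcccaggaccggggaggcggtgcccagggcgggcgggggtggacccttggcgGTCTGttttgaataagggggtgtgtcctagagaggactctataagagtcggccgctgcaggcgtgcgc
Id4 (chr13:48260866-48261115, + strand): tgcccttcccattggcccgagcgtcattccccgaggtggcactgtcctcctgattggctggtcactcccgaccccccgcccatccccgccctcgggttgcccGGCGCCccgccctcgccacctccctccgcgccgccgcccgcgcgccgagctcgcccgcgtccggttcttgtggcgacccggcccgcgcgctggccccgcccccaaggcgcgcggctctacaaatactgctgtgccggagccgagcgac
Id2 (chr12:25096093-25096342, - strand): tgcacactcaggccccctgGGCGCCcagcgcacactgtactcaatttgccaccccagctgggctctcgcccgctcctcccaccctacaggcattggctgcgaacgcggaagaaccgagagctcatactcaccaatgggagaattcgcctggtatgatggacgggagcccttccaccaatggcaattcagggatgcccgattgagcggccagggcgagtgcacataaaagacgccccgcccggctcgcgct
The Id3 window holds CAGAC or GTCTG at 2 places and no GGCGCC, whereas the Id4 and Id2 windows each hold GGCGCC at 1 place and no CAGAC or GTCTG. Of all 32851 promoter windows of this length, 9.6% hold GGCGCC and 42.2% hold CAGAC or GTCTG. The windows were 62.8% (Id3), 75.6% (Id4) and 62.8% (Id2) G or C, against a median of 52.4%. A match here is a match of letters only.

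Id1 read 9.98, 10.05 and 9.995 on R1 arrays and 7.80, 7.97 and 7.88 on FpB6CBA. The other 3 lines overlapped in between, at 8.86, 8.96 and 8.89 in NmB6D2, 8.83, 8.89 and 8.80 in OpB6D2 and 8.84, 8.98 and 8.92 in FpB6D2. R1 was 2.14-fold above NmB6D2 (1.10 ± 0.06, adjusted p = 1.1e-09) and FpB6CBA 2.05-fold below FpB6D2 (-1.03 ± 0.06, adjusted p = 2.6e-09). The latter lay at the fold minimum, with -0.99 without FpB6CBA replicate 1 and -0.9995 without FpB6D2 replicate 2.

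Id3 separated all 5 lines, with no overlap between any of them. It read 9.41, 9.58 and 9.37 in R1, 8.73, 8.72 and 8.78 in FpB6D2, 8.31, 8.47 and 8.28 in OpB6D2, 7.43, 7.55 and 7.52 in NmB6D2 and 6.88, 6.91 and 6.67 in FpB6CBA. R1 was 3.87-fold above NmB6D2 (1.95 ± 0.08, adjusted p = 6.9e-11) and FpB6D2 2.37-fold (1.24 ± 0.08). FpB6CBA lay 3.79-fold below FpB6D2 (-1.92 ± 0.08, adjusted p = 1.1e-10), a comparison in which the primitive endoderm markers Dab2 (8.999 in FpB6CBA, 6.17 in FpB6D2) and Cubn (7.70 and 4.72) were higher in FpB6CBA.

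Id4 read 7.39, 7.45 and 7.49 in R1 and 6.77, 6.51 and 6.71 in FpB6D2. The other lines were lower, at 5.69, 5.43 and 5.46 in OpB6D2, 5.43, 5.40 and 5.07 in FpB6CBA and 5.09, 5.08 and 5.20 in NmB6D2. R1 was 4.98-fold above NmB6D2 (2.32 ± 0.10, adjusted p = 1.4e-10), and FpB6D2 2.90-fold above NmB6D2 and 2.20-fold above OpB6D2 (1.14 ± 0.10, adjusted p = 7.8e-07). Both weaker Id4 probe sets put R1 and FpB6D2 above the other 3 lines.

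Id2 was highest in NmB6D2, where it read 8.90, 8.75 and 8.76. It was lower in R1 (7.96, 7.84 and 7.82), FpB6CBA (7.42, 7.41 and 7.56), FpB6D2 (7.18, 7.19 and 7.32) and OpB6D2 (6.89, 7.02 and 6.79), with no overlap between lines. OpB6D2 was 3.75-fold below NmB6D2 (-1.91 ± 0.07, adjusted p = 1.6e-10) and FpB6D2 2.98-fold below it (-1.58 ± 0.07, adjusted p = 5.2e-10; -0.89 with probe sets averaged). R1 lay 0.93 below NmB6D2, within the fold minimum. The trophectoderm markers Elf5 (6.95 in NmB6D2, 2.88 to 3.69 elsewhere) and Hand1 (7.25 and 4.48 to 6.09) were also highest in NmB6D2, as were 5 of the 10 on the list, while Tfap2c was highest in OpB6D2 (8.51 against 8.03), where Id2 was lowest.

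The genes that the name rule adds but that belong to none of the roles above were called in 5 of 5 cases, where 32.9% of all genes were. Tgfbi, a matrix protein induced by TGF-beta, was 6.62 ± 0.11 in FpB6D2, 6.28 ± 0.23 in R1, 5.98 ± 0.23 in FpB6CBA, 5.08 ± 0.14 in NmB6D2 and 4.98 ± 0.39 in OpB6D2. FpB6D2 was 3.11-fold above OpB6D2 (1.64 ± 0.17, adjusted p = 3.8e-06), but the span was 0.53 once probe sets not specific to 1 transcript were set aside. Bmp2k, a kinase named for its induction by BMP2, was lowest in FpB6D2 (4.70 ± 0.21, against 5.69 to 6.02), with a span of 0.59 when probe sets were averaged. Bmp1, a protease that cleaves procollagen and chordin, was 6.76 ± 0.23 in R1, 6.50 ± 0.15 in NmB6D2 and 5.70 to 5.92 in the other means (span 1.06, 0.96 without R1 replicate 4 and 0.51 with probe sets averaged). Its second probe set was highest in NmB6D2 (4.59, with R1 at 4.37). Tgfb1i1, also named Hic-5, was highest in R1 (7.65 ± 0.16), 1.01 ± 0.14 above NmB6D2, and 0.93 without NmB6D2 replicate 2 or 0.92 without R1 replicate 4. Tgfbrap1, a receptor-associated protein, spanned 1.06 on a probe set not specific to 1 transcript. It spanned 0.30 on a specific probe set (adjusted p = 0.2 by limma), 0.38 with probe sets averaged, 0.96 without FpB6CBA replicate 3 and 0.98 without R1 replicate 3.

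The mode of origin was compared with the line as the replicate, 3 parthenogenetic against 2 fertilised. No member was called (0 of 46), and neither was any other gene (0%) at an adjusted p under 0.05 in limma. At an unadjusted p under 0.05 there were 5 members (10.9%) and 606 genes (4.73%): Bmp1 (-0.86 ± 0.19 SE), Tgfb2 (-1.34 ± 0.34), Bmp4 (-1.17 ± 0.31), Id2 (-1.14 ± 0.34) and Tgfbr3 (0.92 ± 0.29), each with an adjusted p of 0.92. Line means of the 2 kinds did not overlap in 10 members (21.7%) and in 19.4% of all genes, so the members were near the background here. In Bmp4 the 3 parthenogenetic means were 7.68 to 8.38 and the fertilised means 9.002 and 9.57. An exact rank test of 3 against 2 lines cannot give a two-sided p under 0.2. Without NmB6D2, leaving R1 as the only fertilised line, Bmp2, Bmper and Tgfb1 and 66 genes in all were called. That contrast sets R1 alone against the parthenogenetic lines and takes its spread from those 3 lines only. It includes Bmp2, which passed the filter only through R1, and Bmper, which would not have passed without its R1 arrays.

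**Figure D5:**
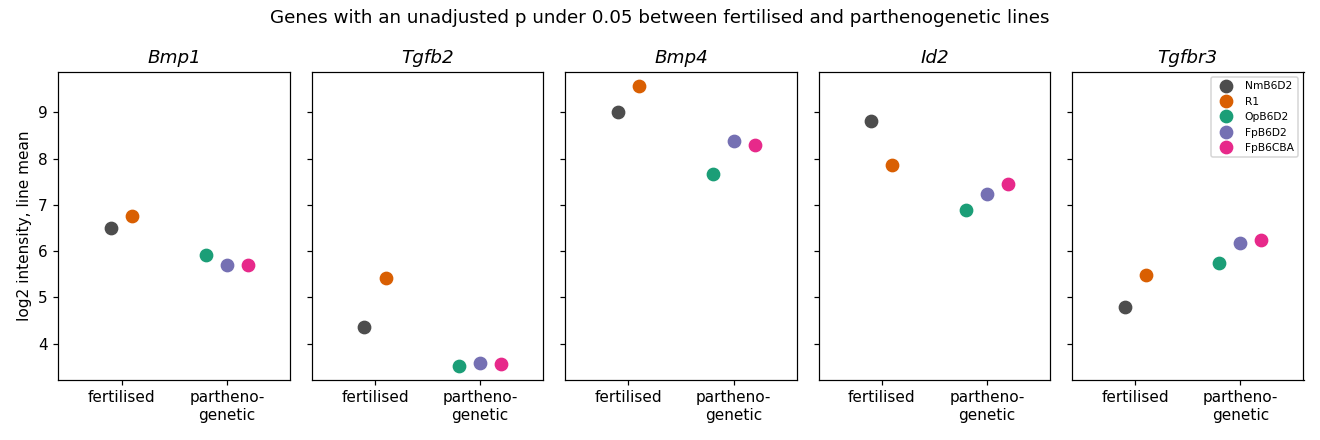
Line means in log2 intensity of the 5 members with an unadjusted p under 0.05 between the 2 fertilised lines and the 3 parthenogenetic lines; each point is the mean of 3 arrays. Bmp1, Tgfb2, Bmp4 and Id2 lie lower and Tgfbr3 higher in the parthenogenetic lines, and none passed adjustment over all genes.

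Other genes of the pathway, listed by role without regard to the name rule, were called across the lines in 34 of 83 tested genes (41%), nearer to the 32.9% of all genes. R1 was the highest line in 18 of the 34, and in 33.7% of all called genes. The 34 include Mixl1 and Zeb2 (4.07 in R1, 2.96 to 3.43 elsewhere), whose means exceeded the filter value in R1 alone. R1 was thus bound to be their highest line. No count limited to genes at the filter value in every line was made for this list. Against NmB6D2, R1 had 15 of the 83 higher and 2 lower (all genes 7.39% and 5.49%), OpB6D2 8 and 1 (3.24% and 2.6%), and FpB6D2 8 and 1 (5.22% and 5.53%). FpB6D2 against OpB6D2 had 0 higher and 4 lower (1.31% and 2.44%), and FpB6CBA against FpB6D2 5 and 5 (6.03% and 5.14%). Of the target genes listed for activin and TGF-beta, 7 of 10 were called (32.9% of all genes), all 7 of them higher in R1 than in NmB6D2. They included the mesendoderm factors Mixl1 (6.82 in R1, 3.42 to 3.76 elsewhere) and Eomes (10.08 and 7.12 to 7.49), Snai1 (6.98 and 4.92 to 5.88), which drives loss of epithelial character, and Thbs1 (8.86 in R1, 7.20 to 8.67 elsewhere), an activator of latent TGF-beta. Since Mixl1 passed the filter through R1 alone, its direction in the count of 7 was fixed in advance. Mixl1 and Eomes are also on the mesendoderm marker list, and Eomes also on that of trophectoderm. Ccn2, another of the 7, is on the fibroblast list. R1 did not stand apart in all 7: Snai2 was 6.06 in OpB6D2 and 6.03 in R1, and Ccn2 10.65 in R1 and 10.59 in FpB6D2. Of the 10, 3 were also called higher in OpB6D2 than in NmB6D2 and 0 lower (all genes 3.24% and 2.6%). In FpB6D2 against NmB6D2, 2 were higher and 0 lower (all genes 5.22% and 5.53%).

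Of the BMP targets outside the name rule, 5 of 10 were called, against 32.9% of all genes. The homeobox genes Msx2 (9.13 in R1, 4.84 to 5.39 elsewhere) and Msx1 (7.24 and 4.32 to 4.51) were high in R1 alone, as Bmp2 was. Tbx3, a transcription factor of naive ES cells, was lowest in NmB6D2 (5.88) and highest in FpB6D2 (9.41), and Dusp9, an ERK phosphatase induced by BMP4 in ES cells, was lowest in R1 (7.91, against 9.46 to 10.36). R1 was thus the lowest line for Dusp9 and the highest for Id1 and Id3.

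Of the other ligands 3 of 8 (37.5%), of the co-receptors 2 of 9 (22.2%) and of the intracellular regulators 12 of 33 (36.4%) were called, shares not far from the 32.9% of all genes. Lefty1, an antagonist of Nodal, was 9.65 in R1 and 7.22 in FpB6D2, and Lefty2 6.54 and 4.70 in the same lines. Gdf3 was 10.0002 in FpB6D2 and 8.06 in R1, while Nodal itself lay at 9.21 to 9.55 and was not called. The called co-receptors were Cfc1 (5.04 in R1, 3.86 to 4.22 elsewhere) and Rgmb (5.72 and 4.61 to 5.01). The called intracellular regulators with the widest spans were Zeb1 (7.56 in OpB6D2, 5.23 in FpB6CBA), Foxh1, a DNA-binding partner of Smad2 and Smad3 (8.47 in R1, 6.43 in FpB6D2), Smurf1, a ubiquitin ligase for Smad1 and Smad5 (7.88 in FpB6CBA, 5.94 in R1), and Usp9x, a deubiquitinase of Smad4 (9.57 in OpB6D2, 7.91 in FpB6CBA). Of the secreted antagonists and carriers 7 of 16 (43.8%) were called, among them Crim1 (5.92 in FpB6CBA, 4.25 in FpB6D2), Fstl3 (6.68 in FpB6CBA, 5.13 in OpB6D2) and Fstl1 (9.67 in R1, 8.18 in NmB6D2).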

How the data were processed

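Each array has a deposited column of log2 intensities over 45101 probe sets, which the authors made with RMA and the affy package per the submitters' processing notes; versions and settings are not given there. The log base was inferred from the range of 1.99 to 13.96. Array annotation gave 34945 probe sets with 1 symbol, 932 with several, 9160 with none and 64 controls; 34741 were matched to GRCm38.p6 gene names. A gene took its probe set with the highest mean. Genes were tested when they reached 3.864 on 3 arrays. No further normalisation was applied. Line means were fitted over all 15 arrays with limma 3.58.1 (R 4.3.3), with Benjamini-Hochberg adjustment over 12813 genes. Mode of origin was fitted on line means. Calls needed an adjusted p under 0.05 and 1 log2 unit. Where a line mean lay below 3.864, folds are bounds against that value. SE is that of the fit, and SD the spread of 3 arrays. The fit was tested on simulated data. Plots used matplotlib 3.10.9.

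The members, gene lists and tests were chosen with earlier results of these data known. Named were all members, up to 4 called genes per other role by span, markers, and some further genes given as limits or for comparison. Replicate numbers were present in 13 titles. Alternatives covered filters, probe set choice, normalisation, variance models, array weights, thresholds, a replicate block and leaving out arrays or lines. The number of arrays limits the precision. No scanner files were used here.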

Additional observations from a re-analysis of the deposited data

How the results depend on the processing

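Of the 32 spans called, 9 kept their call under every alternative run and 23 lost it under at least 1. Of 45 called differences between pairs of lines 24 kept it, and none of the 45 changed sign. A span has no sign, so a change of its highest line was not counted there. Among called members, 19 had another probe set at the filter, 26 such probe sets in all. The highest line was the same on 17 of the 26, and 11 also had a span of at least 1. Leaving out 1 array at a time gave 30 to 33 called members across the lines (4192 to 4248 genes, and 34 to 36 other pathway genes). It gave 3 to 5 members for OpB6D2 against NmB6D2 (748 to 775 genes), 10 to 12 for FpB6D2 against NmB6D2 (1353 to 1383), 5 to 6 for FpB6D2 against OpB6D2 (469 to 511), 5 to 10 for FpB6CBA against FpB6D2 (1417 to 1470), 16 to 18 for R1 against NmB6D2 (1640 to 1681) and 0 for mode of origin. Averaging the probe sets of a gene left 7 of 11 members for FpB6D2 against NmB6D2, 2 of 5 for FpB6D2 against OpB6D2 (299 of 480 genes) and 4 of 7 for FpB6CBA against FpB6D2. For the first and the last of these the count of all genes is not given here. Those losses therefore cannot be read as a result about the members. With a minimum of 1.5-fold, calls came to 7998 genes against 4211 and 54 other pathway genes against 34 across the lines. Pairs then had 11 members and 2201 genes (against 4 and 748) for OpB6D2 with NmB6D2, and 19 and 3429 (11 and 1377) for FpB6D2 with NmB6D2. They had 10 and 1903 (5 and 480) for FpB6D2 with OpB6D2, 17 and 3499 (7 and 1430) for FpB6CBA with FpB6D2, and 3703 genes (1651) for R1 with NmB6D2. Without R1, chosen after seeing the data, 15 members, 2672 genes and 20 other pathway genes were called. Mode of origin without NmB6D2 gave 3 members and 66 genes, and with the line as a random block over 15 arrays 56 genes. The cause of these shifts was not tested, except that a lower minimum admits more genes.

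Same-numbered arrays of different lines deviated together weakly if at all (12 pairs, correlations of -0.18 to 0.13, 1 pair above 0.1). These are deviations from means of only 3 arrays, and the titles do not say what the numbers stand for. Whether the numbers pair the arrays therefore cannot be told. A replicate block, with the arrays without a number left out, called 32 members across the lines, 3 for OpB6D2 and 11 for FpB6D2 against NmB6D2, 7 for FpB6D2 against OpB6D2, 6 for FpB6CBA against FpB6D2 and 19 for R1 against NmB6D2. The share of all genes called in that fit is not given here, so these counts cannot be read as a result about the members.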
